A study of Mus musculus with 2 samples.

Results

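The genes of regulatory T cell (Treg) identity were followed in IL-10-producing CD4+ T cells of spleen and small intestine. They were Foxp3, its reporter mRFP, Ikzf2, Ikzf4, Il2ra, Nrp1, Lrrc32, Gpr83 and Capg, and all 9 were among the 28009 genes listed for both tissues. The names were taken as a fixed list, which was chosen with earlier results of these data known. IL-10eGFP Foxp3mRFP double reporter mice, which carry a green reporter of Il10 and a red reporter of Foxp3, had received 2 doses of anti-CD3, an antibody that stimulates T cells through their receptor, each of 15 µg and given on days 0 and 2, and their cells were taken 4 h after the last dose. The study used mice aged 8 to 16 weeks. IL-10eGFP+ CD4+ T cells were sorted with no exclusion of Foxp3+ cells and measured on the 10x Genomics Chromium platform, which counts each captured transcript once by its unique molecular identifier (UMI). The reporter alleles and the anti-CD3 treatment were common to both groups, and no library of untreated mice was analysed here. There was 1 library per tissue. All cells of a tissue therefore share 1 source, no test between tissues or between cells was possible, and every interval below is a 95% interval that covers counting error only. The number of mice behind each library was not given in the sources used here, and the labels do not say which layer of the gut wall the intestinal cells came from.

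Foxp3 is the lineage-defining transcription factor of Treg cells. It acts together with Ikaros family factors, among them Ikzf2 (Helios) and Ikzf4 (Eos), and Treg cells usually carry the high affinity receptor chain for IL-2 (Il2ra, CD25), the semaphorin receptor Nrp1, the docking receptor for latent TGF-beta Lrrc32 (GARP) and the orphan receptor Gpr83 on their surface. Capg is an actin-capping protein. IL-10 is made by part of the Treg cells of the gut and also by Foxp3-negative cells such as type 1 regulatory T cells, so a sort on IL-10 alone can hold both. Activated T cells without Foxp3 can also express Il2ra.

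Cells that failed quality filters (90 of 1738 barcodes in the spleen and 135 of 1474 in the small intestine) and cells placed in G2/M (180 and 62) were left out. This kept 1468 splenic cells with 9151420 UMIs (median 5398 per cell) and 1277 intestinal cells with 5032225 UMIs (median 3696). No barcode was shared by the libraries. Levels are given as UMIs per 1000000 UMIs (CPM), and a count of 3 UMIs, the least taken as detectable, equals 0.328 CPM in spleen and 0.596 CPM in small intestine. The T cell gene Cd3d had a UMI in 99.5% of the splenic and 98.3% of the intestinal cells, and Cd4 in 67.1% and 73.1%, which fits the label. The CD8 genes Cd8a and Cd8b1 summed to 13.8 CPM in the spleen, where Cd8a was at 0, and to 353 CPM in the small intestine, where 121 cells had UMIs of both genes. Myeloid markers summed to 9.07 and 2.58 CPM, NK cell markers to 1.53 and 0.596 CPM with Ncr1 at 0 in both, plasma cell markers to 1.20 and 3.78 CPM and red cell markers to 0.328 CPM and 0. The 5 epithelial markers summed to 32.2 CPM in the spleen, of which 289 of 295 UMIs were Epcam, and to 17.3 CPM in the small intestine. The part of these cells in the results below was not tested, except where values without the CD8 cells are given. None of the 3 gamma-delta T cell markers was listed.

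Of the members 8 are protein-coding genes of the mouse genome (mm10, positions from GENCODE vM21), and mRFP is a reporter sequence with no place in it. Foxp3 lies on chromosome X (7573644 to 7595245, + strand), Ikzf2 on chromosome 1 (69531214 to 69687245, - strand), Ikzf4 on chromosome 10 (128630843 to 128645991, - strand) and Il2ra on chromosome 2 (11642807 to 11693193, + strand). Nrp1 lies on chromosome 8 (128358604 to 128503363, + strand), Lrrc32 on chromosome 7 (98489283 to 98502181, + strand), Gpr83 on chromosome 9 (14860210 to 14870789, + strand) and Capg on chromosome 6 (72544391 to 72562983, + strand). No 2 of the 8 share a chromosome.

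Promoters, from 250 bases before to 50 bases after a RefSeq start (GRCm38.p6), were at hand for 5 of the 8 genes. Those of Foxp3 (the first of its 2 listed starts), Il2ra, Capg and Nrp1 are shown because Foxp3 splits the cells below, Il2ra and Capg were higher in cells with a Foxp3 UMI in both tissues, and Nrp1 was not. Capitals mark matches, on either strand, to the TATA box letters TATAAA, to the STAT letters TTCNNNGAA and to the NFAT core GGAAA.
Foxp3, chrX:7579426-7579725, + strand: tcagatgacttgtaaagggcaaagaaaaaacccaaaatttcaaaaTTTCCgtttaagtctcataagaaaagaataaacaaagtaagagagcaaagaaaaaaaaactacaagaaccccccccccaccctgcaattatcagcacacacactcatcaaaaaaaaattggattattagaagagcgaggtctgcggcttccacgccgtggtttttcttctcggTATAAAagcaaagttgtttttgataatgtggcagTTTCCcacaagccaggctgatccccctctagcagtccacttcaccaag
Il2ra, chr2:11642542-11642841, + strand: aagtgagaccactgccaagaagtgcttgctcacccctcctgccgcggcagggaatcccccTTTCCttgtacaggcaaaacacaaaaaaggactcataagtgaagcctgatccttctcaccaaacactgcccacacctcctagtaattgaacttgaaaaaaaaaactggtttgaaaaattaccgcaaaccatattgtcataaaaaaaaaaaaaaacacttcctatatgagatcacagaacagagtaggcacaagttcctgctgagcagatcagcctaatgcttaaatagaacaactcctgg
Capg, chr6:72549397-72549696, + strand: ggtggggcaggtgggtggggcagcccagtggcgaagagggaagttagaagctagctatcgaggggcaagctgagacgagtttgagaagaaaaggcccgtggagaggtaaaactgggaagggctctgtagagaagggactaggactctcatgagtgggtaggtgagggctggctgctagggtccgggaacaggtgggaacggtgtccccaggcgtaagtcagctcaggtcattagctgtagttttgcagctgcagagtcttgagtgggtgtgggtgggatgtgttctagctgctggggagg
Nrp1, chr8:128358823-128359122, + strand: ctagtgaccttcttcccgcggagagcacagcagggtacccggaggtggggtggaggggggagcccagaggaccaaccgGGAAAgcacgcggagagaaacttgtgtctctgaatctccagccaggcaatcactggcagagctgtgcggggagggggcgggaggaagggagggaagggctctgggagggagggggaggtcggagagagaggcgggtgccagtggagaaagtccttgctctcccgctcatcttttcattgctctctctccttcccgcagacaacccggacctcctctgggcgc
The Foxp3 window held 1 TATA box and 2 NFAT cores, those of Il2ra and Nrp1 held 1 NFAT core each, and that of Capg held no match to any of the 3. The window at the second Foxp3 start held 1 NFAT core and 1 STAT match, which overlap, and the Gpr83 window held 1 TATA box. Over all 32851 listed promoters of the same length, 13.6% held the TATA letters, 8.30% the STAT letters and 61.3% the NFAT core. No window of a member held the forkhead letters GTAAACA, found in 3.65% of all promoters, or the Runx letters TGTGGT, found in 16.8%. Among these windows Il2ra and Nrp1, whose levels moved differently with Foxp3, held the same matches. A missing match says only that these letters are not in the window.

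The first comparison, of the spleen with the small intestine, asked where cells of Treg identity were found among IL-10 producers. Foxp3 and 6 other members were at least 2-fold higher in the spleen, while Capg was less than 2-fold higher and the interval of Ikzf4 held no difference. The count of 7 of 9 members at least 2-fold higher with an interval that excludes equality, with none lower, is a description beside 12.9% of all 7723 genes with at least 100 UMIs that were higher in the spleen by the same measure and 9.71% that were lower. Of the 7, Foxp3, mRFP, Nrp1, Lrrc32 and Gpr83 reached 100 UMIs only with the UMIs of the spleen, where most of their UMIs lay. The place of these genes among the tested genes thus rests on the difference itself.

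Foxp3 had 468 UMIs in splenic cells, a level of 51.1 CPM (46.6 to 56.0). Intestinal cells had 38 Foxp3 UMIs, or 7.55 CPM (5.34 to 10.4). The intervals lay far apart, and the spleen was 6.77-fold higher (4.86 to 9.69). Of the 1468 splenic cells 280 carried Foxp3 (19.1%, Clopper-Pearson interval 17.1 to 21.2), and of the 1277 intestinal cells 28 did (2.19%, 1.46 to 3.15). Most of these cells held few molecules: 147 splenic cells had 1 Foxp3 UMI, 94 had 2 and 39 had 3 or more, with at most 5, and the intestinal cells were 22, 3 and 3, with at most 4. When every cell was thinned to 2000 UMIs, so that depth was equal, 112 of 1445 splenic cells kept a Foxp3 UMI (7.75%, 6.42 to 9.25), as did 16 of 1170 intestinal cells (1.37%, 0.784 to 2.21). Thinning left out 23 splenic and 107 intestinal cells with fewer UMIs, and over 6 random draws the shares were 7.75% to 9.20% and 1.28% to 1.62%. The tissues thus kept their order at equal depth. The Foxp3 level among cells chosen for a Foxp3 UMI is set by that choice and by depth, so it was not compared.

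As a gauge of free RNA, the 121 intestinal cells with UMIs of both Cd8a and Cd8b1 (median 4452 UMIs) held 1 Foxp3 UMI, a share of 0.826% (0.0209 to 4.52), against 2.34% (1.55 to 3.38) in the other intestinal cells (median 3636 UMIs). The intervals overlap, and a count of 3 in the 121 cells would be 2.48%, above the share it is set against. The gauge was thus too coarse to tell the Foxp3 share of the small intestine from background, and nothing is concluded from it. A share in CD8 cells well above 0 was seen for Ikzf2, at 38.0% against 17.9% in the other cells, and for Nrp1, at 10.7% against 2.85%, so UMIs of these genes were more frequent in the CD8 cells, while Ikzf4 was at 4.13% against 2.25% with overlapping intervals. Il2ra was found in 6.61% of CD8 cells and 6.83% of the others, and Capg in 14.9% and 32.3%. mRFP, Lrrc32 and Gpr83 had no UMI in the CD8 cells, which allows a share of up to 2.48% by a count of 3 (Clopper-Pearson upper bound 3.003%), while they were found in 0.779%, 0.779% and 0.519% of the other cells. In the spleen no cell had UMIs of both CD8 genes, so no such gauge was at hand there. Leaving the CD8 cells out changed the log2 ratio of Foxp3 between the tissues from 2.76 to 2.60.

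mRFP, which was placed in the Foxp3 gene as its reporter, had 108 UMIs and 11.8 CPM (9.68 to 14.2) in splenic cells. Intestinal cells had 9 mRFP UMIs, or 1.79 CPM (0.818 to 3.40). Its ratio was 6.60 (3.35 to 14.8), beside 6.77 for Foxp3. Its UMIs were in 6.47% of the splenic and 0.705% of the intestinal cells.

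Of the Ikaros family factors, Ikzf2 was 224 CPM (215 to 234) in splenic and 81.9 CPM (74.2 to 90.2) in intestinal cells, a ratio of 2.74 (2.46 to 3.05). Ikzf4 was 8.30 CPM (6.54 to 10.4) and 6.36 CPM (4.35 to 8.98), a ratio of 1.31 (0.854 to 2.04). Helios thus differed between the libraries, and a difference of Eos was not detectable at this depth. The share of cells with an Ikzf2 UMI was 46.5% against 19.8%, and 28.2% against 12.6% at equal depth.

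Among the surface receptors, Il2ra was 156 CPM (148 to 164) in splenic and 23.6 CPM (19.6 to 28.3) in intestinal cells, a ratio of 6.60 (5.47 to 8.02). Nrp1 was 40.3 CPM (36.3 to 44.7) and 11.1 CPM (8.41 to 14.5), a ratio of 3.62 (2.73 to 4.89). All 4 receptors were higher in the spleen. Lrrc32 had 109 UMIs and 11.9 CPM there against 9 UMIs and 1.79 CPM, a ratio of 6.66 (3.38 to 14.95). Gpr83 had 110 UMIs and 12.02 CPM against 7 UMIs and 1.39 CPM, a ratio of 8.64 (4.06 to 22.0). At equal depth the share of cells with an Il2ra UMI was 19.6% in splenic against 3.25% in intestinal cells, and that with an Nrp1 UMI 6.09% against 1.45%. Capg was 336 CPM (324 to 348) in splenic and 226 CPM (213 to 239) in intestinal cells, a ratio of 1.49 (1.39 to 1.59) whose interval excluded both equality and a 2-fold difference.

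**Figure D1:**
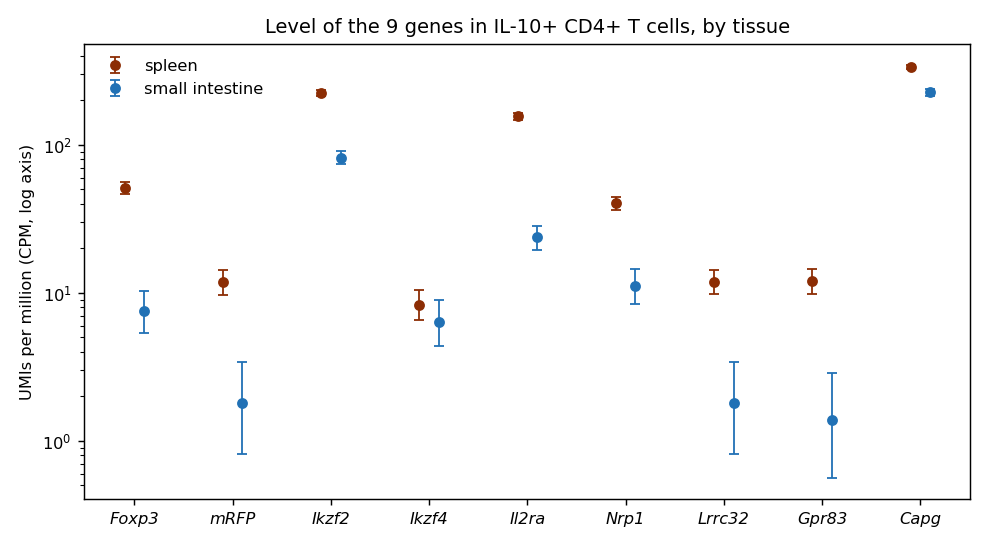
Level of the 9 genes in UMIs per 1000000 (log axis) in the splenic library (brown, 1468 cells) and the intestinal library (blue, 1277 cells); points are CPM summed over cells and bars are exact Poisson intervals of the count. The brown point lies above the blue point for each of the 9 genes, by 1.31-fold for Ikzf4 and 8.64-fold for Gpr83, and the bars overlap for Ikzf4.

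Since the spleen held more cells with a Foxp3 UMI, the tissues were also compared within each class of cells. Among cells without a Foxp3 UMI the spleen was higher for Il2ra, at 115 against 20.7 CPM (5.54-fold, 4.50 to 6.89), for Nrp1, at 41.4 against 11.5 CPM (3.61-fold, 2.71 to 4.90), and for Ikzf2, at 183 against 77.0 CPM (2.37-fold, 2.11 to 2.67). mRFP, at 6.44 against 1.23 CPM, Gpr83, at 7.03 against 1.02 CPM, and Lrrc32, at 6.59 against 1.84 CPM, had the same direction on 5 to 9 intestinal UMIs each. The difference between the libraries was thus also present outside the cells with captured Foxp3. Cells whose Foxp3 was not captured and cells without it cannot be told apart there. Among cells with a Foxp3 UMI, Il2ra was 278 against 121 CPM (2.30-fold, 1.45 to 3.91) and Ikzf2 347 against 241 CPM (1.44-fold, 1.03 to 2.07). Capg had the opposite order in these cells, at 601 CPM in splenic and 1333 CPM in intestinal cells, a ratio of 0.451 (0.388 to 0.526), while in cells without Foxp3 it was 245 and 192 CPM (1.28-fold, 1.18 to 1.38).

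The second comparison, within each tissue, set cells with at least 1 Foxp3 UMI against cells with none. In the spleen mRFP, Lrrc32, Gpr83, Capg and Il2ra were higher in cells with Foxp3, Ikzf2 was higher by just under 2-fold, and Nrp1 did not differ detectably. Among intestinal cells Capg, Il2ra and Ikzf2 were higher and the other members had too few UMIs to be compared. In the spleen 7 of the 8 other members had at least 100 UMIs and 5 of these were at least 2-fold higher, beside 1.08% of all 6562 genes that were higher by the same measure and 1.72% that were lower. Nothing is read from that count, since mRFP (64 of its 108 UMIs), Lrrc32 (64 of 109) and Gpr83 (62 of 110) reached the minimum only with the UMIs of cells with Foxp3, where they were high. Of the intestinal counts 3 reached 100 UMIs and all 3 were at least 2-fold higher, beside 4.22% of 5051 genes that were higher and 3.54% that were lower. The median log2 ratio over all genes tested was 0.04 for splenic and 0.06 for intestinal cells. Cells with a Foxp3 UMI were deeper, with a median of 7665.5 against 5047.5 UMIs for splenic and 4708.5 against 3687 UMIs for intestinal cells. Values within bins of depth are therefore given further on.

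mRFP was 27.5 CPM (21.2 to 35.2) in splenic cells with a Foxp3 UMI and 6.44 CPM (4.68 to 8.65) in cells without, a ratio of 4.27 (2.87 to 6.42). This was the highest ratio of the members tested, and the cells with Foxp3, 280 of 1468, held 59.3% of all mRFP UMIs. An mRFP UMI was nevertheless found in no more than 56 of the 280 cells (20.0%). Of the intestinal cells 3 of the 28 with Foxp3 had 1 mRFP UMI each and 6 of 1249 cells without it did.

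Ikzf2 was 347 CPM (323 to 372) in splenic cells with Foxp3 and 183 CPM (173 to 193) in cells without, a ratio of 1.90 (1.73 to 2.08). Intestinal cells had 241 CPM (169 to 334) against 77.0 CPM (69.4 to 85.2), a ratio of 3.13 (2.16 to 4.41) on 36 UMIs in cells with Foxp3, of which 7 were in 1 cell. The splenic ratio crossed 2-fold under other settings: its log2 value was 0.92, and 1.09 after thinning to 2000 UMIs and 1.07 without the deepest 5% of cells. For the thinned ratio cells were still split by their Foxp3 UMIs before thinning, so the choice of deeper cells remained. Ikzf4 had 33 UMIs in splenic cells with Foxp3 and 43 in cells without, 14.2 CPM (9.78 to 19.9) against 6.30 CPM (4.56 to 8.48), under the minimum of 100 UMIs set for a call. Its ratio was 2.25 (1.39 to 3.63), and in the small intestine it had 4 and 28 UMIs.

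Il2ra was 278 CPM (257 to 300) in splenic cells with Foxp3 and 115 CPM (107 to 123) in cells without, a ratio of 2.42 (2.18 to 2.69). Intestinal cells had 121 CPM (71.4 to 191) against 20.7 CPM (16.8 to 25.1), a ratio of 5.83 (3.32 to 9.68) on 18 UMIs in cells with Foxp3. Of these 18, 6 were in 1 cell, and without it the log2 ratio went from 2.54 to 2.01. Il2ra was found in 213 of the 280 splenic cells with Foxp3 and in 369 of the 1188 without, and the cells with Foxp3 held 45.2% of all its splenic UMIs.

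Nrp1 was 37.0 CPM (29.6 to 45.7) in splenic cells with Foxp3 and 41.4 CPM (36.8 to 46.6) in cells without, a ratio of 0.893 (0.693 to 1.14). The interval leaves out a 2-fold difference in either direction. Nrp1 UMIs were found in 18.6% and 15.3% of the cells of the 2 classes. Of the 86 UMIs in cells with Foxp3, 11 were in 1 cell, without which the log2 ratio was -0.35 in place of -0.16. No Nrp1 UMI was found in the 28 intestinal cells with Foxp3, against 56 UMIs (11.5 CPM) in the others. That count of 0 allows up to 20.1 CPM at 3 UMIs, so no difference was detectable at this depth.

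Lrrc32 was 27.5 CPM (21.2 to 35.2) in splenic cells with Foxp3 and 6.59 CPM (4.81 to 8.82) in cells without, a ratio of 4.18 (2.81 to 6.26). Gpr83 was 26.7 CPM (20.5 to 34.2) and 7.03 CPM (5.18 to 9.32), a ratio of 3.80 (2.56 to 5.65). Like mRFP, both genes had most of their splenic UMIs in the cells with Foxp3, 58.7% for Lrrc32 and 56.4% for Gpr83, and both were found in under 20% of these cells (18.2% and 15.7%). In intestinal cells Lrrc32 had no UMI with Foxp3 and 9 without, and Gpr83 had 2 UMIs, both in 1 cell, and 5.

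Capg was 601 CPM (570 to 633) in splenic cells with Foxp3 and 245 CPM (234 to 257) in cells without, a ratio of 2.45 (2.28 to 2.63). Intestinal cells had 1333 CPM (1154 to 1531) and 192 CPM (180 to 205), a ratio of 6.94 (5.92 to 8.09). Of all members Capg accompanied Foxp3 in the largest share of cells, with UMIs in 255 of 280 splenic cells (91.1%) and 27 of 28 intestinal cells (96.4%), against 46.3% and 29.1% of the cells without Foxp3. The intestinal count did not rest on 1 cell: the highest cell held 33 of 199 UMIs and the log2 ratio without it was 2.73, against 2.79 with it.

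**Figure D2:**
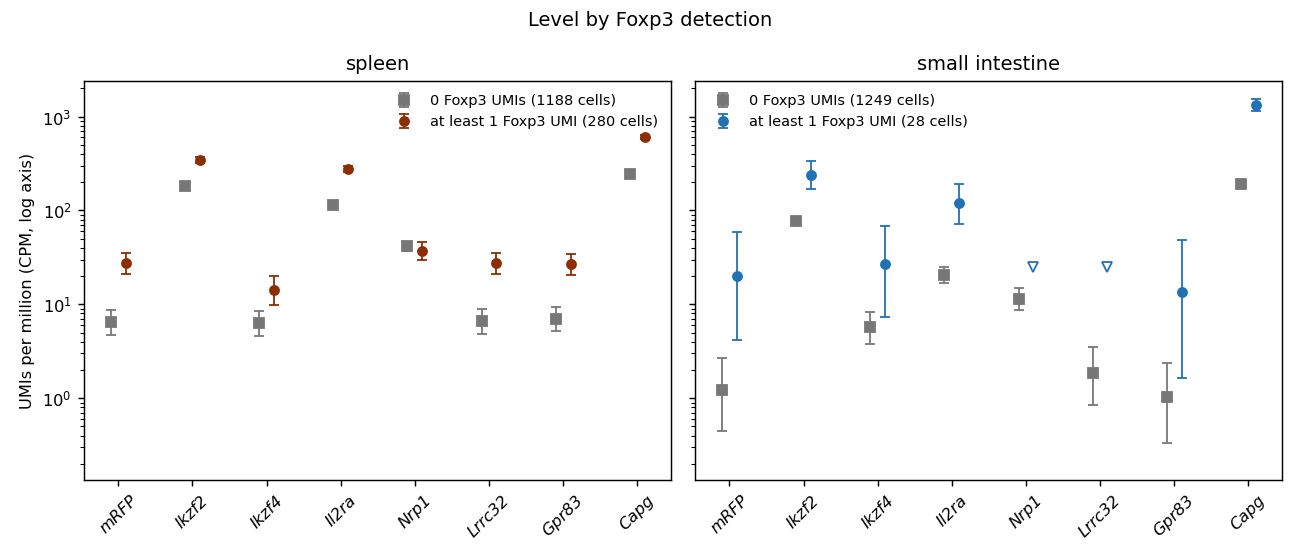
Level of the 8 other members in UMIs per 1000000 (log axis) in cells with no Foxp3 UMI (grey squares) and with at least 1 (coloured circles), in the spleen (left) and the small intestine (right); bars are exact Poisson intervals, and an open triangle marks the upper bound where no UMI was found. In the spleen 7 of the 8 genes lie higher in cells with Foxp3, the exception being Nrp1, and in the small intestine Capg stands at 1333 against 192 CPM.

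Depth was looked at by splitting each library into 3 bins of equal size by UMIs per cell and comparing cells within a bin. Among splenic cells the log2 ratio and its interval stayed above 0 in all 3 bins for mRFP (4.12, 2.63 and 1.49 from the shallowest to the deepest bin), Lrrc32 (3.12, 3.09 and 1.45), Gpr83 (2.59, 2.39 and 1.69), Capg (1.82, 1.504 and 0.94), Il2ra (1.58, 1.35 and 0.97) and Ikzf2 (1.62, 0.66 and 1.38). In the deepest bin, with 166 cells with Foxp3 (median 9600 UMIs) and 325 without (median 8690), Capg and Il2ra were thus just under 2-fold and Ikzf2 above it. Nrp1 had an interval that held 0 in each bin (0.97, -0.17 and -0.33). Ikzf4 had 1 UMI in the shallowest bin of cells with Foxp3, where its log2 ratio was -0.23 (-5.62 to 2.44), and was higher in the other bins (1.86 and 1.81). Of the 28 intestinal cells with Foxp3, 17 were in the deepest bin, where the log2 ratios were 2.81 for Capg, 2.30 for Il2ra and 1.74 for Ikzf2.

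The levels were next set against the number of Foxp3 UMIs in the splenic cell. For the members that were higher with Foxp3, the largest step lay between 0 and 1 UMI. Capg went from 245 CPM with no Foxp3 UMI to 563 CPM (521 to 608) with 1, 642 CPM (587 to 702) with 2 and 633 CPM (555 to 719) with 3 or more. Il2ra was 115, 253, 317 and 274 CPM in the same order, and Ikzf2 was 183, 354, 318 and 384 CPM. Lrrc32 was 6.59, 28.0, 26.0 and 29.5 CPM and Gpr83 7.03, 30.5, 23.4 and 21.5 CPM. Against cells with 1 Foxp3 UMI, cells with 2 had 1.25-fold more Il2ra (1.05 to 1.49) and 1.14-fold more Capg (1.01 to 1.28), while the ratio of cells with 3 or more to cells with 1 was 1.08 (0.854 to 1.36) and 1.12 (0.964 to 1.31). For Ikzf2, Lrrc32 and Gpr83 the intervals of both ratios held equality. mRFP alone had point values in the order of the Foxp3 count, 6.44, 22.9, 27.3 and 42.9 CPM, but on 27, 21 and 16 UMIs, and the ratio of the last class to the class with 1 was 1.88 (0.944 to 3.61). Nrp1 was 41.4, 40.7, 38.9 and 21.5 CPM (9.26 to 42.3 in the last class).

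**Figure D3:**
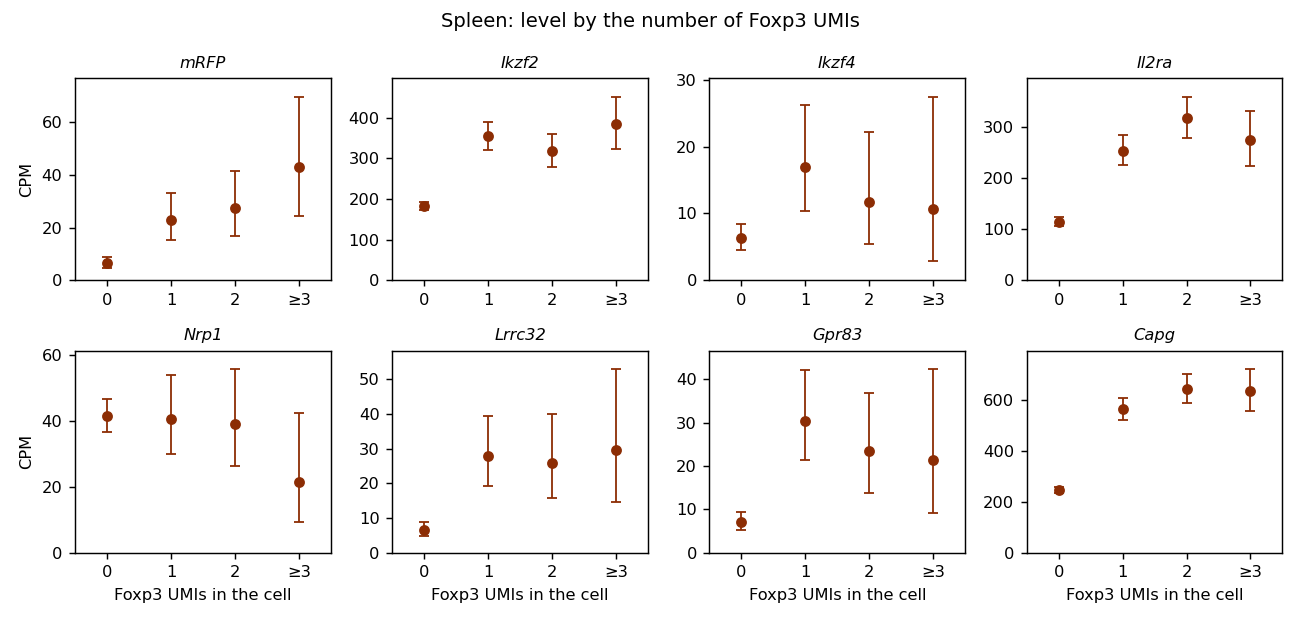
Level in UMIs per 1000000 of each of the 8 other members in splenic cells with 0 (1188 cells), 1 (147), 2 (94) and 3 or more (39) Foxp3 UMIs; bars are exact Poisson intervals and each panel has its own axis from 0. For Capg, Il2ra, Ikzf2, Lrrc32 and Gpr83 the points with 1, 2 and 3 or more UMIs lie together and above the point for 0, and Nrp1 shows no such step.

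Co-detection was read at equal depth, after thinning each cell to 2000 UMIs. Here the classes were set after thinning, so cells that lost their Foxp3 UMIs in it count as cells without Foxp3. Before thinning, 280 splenic and 28 intestinal cells had a Foxp3 UMI. Of the 112 splenic cells that kept a Foxp3 UMI, 76 (67.9%, 58.4 to 76.4) also had a Capg UMI, against 429 of 1333 cells (32.2%, 29.7 to 34.8) without Foxp3. Ikzf2 was found in 44.6% (35.2 to 54.3) against 26.9% (24.5 to 29.3) and Il2ra in 31.2% (22.8 to 40.7) against 18.6% (16.6 to 20.8). The intervals of the classes did not overlap for these 3 genes in this draw. Over the 6 random draws the shares in cells with Foxp3 were 59.1% to 67.9% for Capg, 39.3% to 47.3% for Ikzf2 and 31.2% to 43.6% for Il2ra. mRFP was found in 7 of the 112 cells (6.25%, 2.55 to 12.5) against 1.28% (0.745 to 2.03), again without overlap. For Capg, Ikzf2, Il2ra and mRFP the intervals were apart in 6 of 6 draws. Thinned to 1000 UMIs, 67 splenic cells kept a Foxp3 UMI, and among them Capg (49.3% against 21.8%) and Ikzf2 (32.8% against 15.7%) were still apart, while Il2ra (11.9% against 10.6%) and mRFP (2.99% against 1.21%) had overlapping intervals. For Lrrc32 (6 cells, 5.36% against 1.88%), Gpr83 (4 cells, 3.57% against 1.88%), Ikzf4 (4 cells, 3.57% against 1.88%) and Nrp1 (6 cells, 5.36% against 6.15%) the intervals overlapped in the first draw. The outcome for these sparse genes depended on the draw: the share of Lrrc32 in cells with Foxp3 ranged from 4.51% to 10.4% and its intervals were apart in 4 of 6 draws, those of Gpr83 (3.57% to 6.09%) and Ikzf4 (2.61% to 6.50%) in 1 each and those of Nrp1 (5.36% to 9.82%) in 0. Of the intestinal cells 14 of 16 with Foxp3 had Capg (87.5%, 61.7 to 98.4) against 22.6%, and 6 had Ikzf2 (37.5%, 15.2 to 64.6) against 12.2%. Il2ra was found in 2 (12.5%, 1.55 to 38.3) against 3.12% (2.19 to 4.29), with overlapping intervals. With so few cells the shares moved between draws, from 73.3% to 94.1% for Capg, 23.5% to 53.3% for Ikzf2 and 10.5% to 29.4% for Il2ra. The intervals were apart in 6 of 6 draws for Capg, in 3 for Ikzf2 and in 2 for Il2ra. The other 5 members were found with Foxp3 in none of the 16 cells of this draw, which allows a share of up to 18.8% by a count of 3 (Clopper-Pearson upper bound 20.6%).

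**Figure D4:**
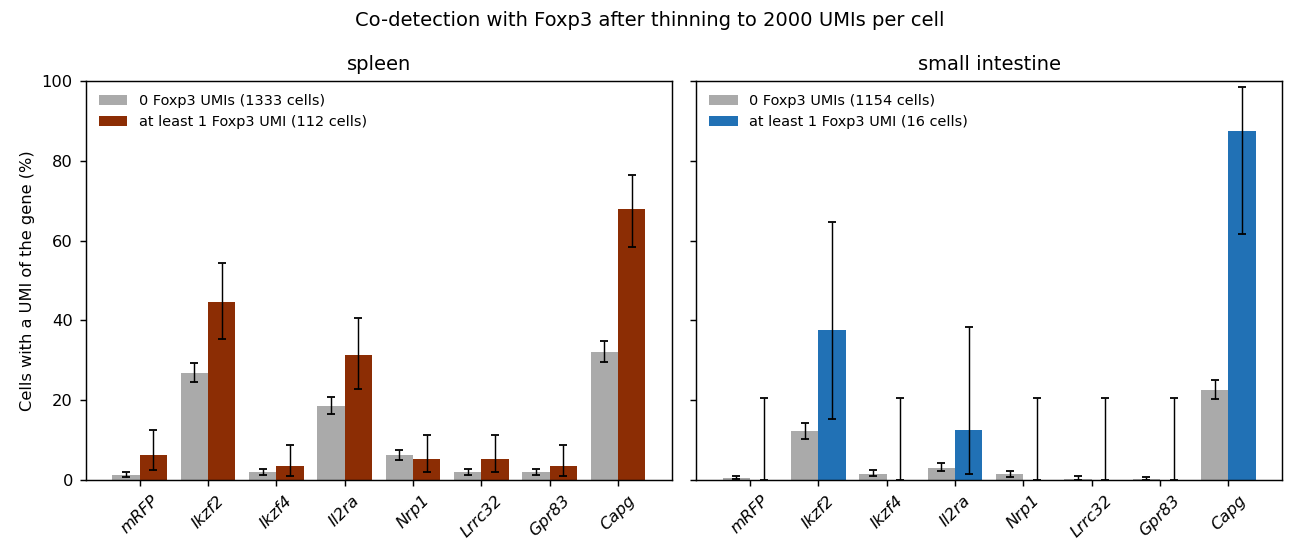
Share of cells (%) with a UMI of each of the 8 other members after thinning to 2000 UMIs. Cells without (grey) and with (coloured) a Foxp3 UMI left after thinning are shown for the spleen (left) and the small intestine (right). Bars carry exact Clopper-Pearson intervals. Capg reaches 67.9% and 87.5% of the cells with Foxp3, and Nrp1 is at 5.36% and 6.15% in the 2 classes of the spleen.

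Read the other way, without thinning, the share of splenic cells with a Foxp3 UMI was 58.9% (48.4 to 68.9) among the 95 cells with mRFP, 57.3% (46.4 to 67.7) among the 89 with Lrrc32, 54.3% (42.9 to 65.4) among the 81 with Gpr83 and 40.0% (28.0 to 52.9) among the 65 with Ikzf4. The more widely found genes held less: 36.6% of cells with Il2ra, 31.7% with Capg, 29.0% with Ikzf2 and 22.2% with Nrp1 had a Foxp3 UMI, against 19.1% of all splenic cells. Cells without a Capg UMI had a Foxp3 UMI in only 25 of 663 cases (3.77%, 2.46 to 5.52). Of the intestinal cells 27 of the 391 with Capg and 1 of the 886 without it had a Foxp3 UMI. The median depth of cells with a member was higher than that of cells without it for all 8 members in the spleen, for example 6668 against 4462 UMIs for Capg.

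Because mRFP reports Foxp3, splenic cells with an mRFP UMI but no Foxp3 UMI were described on their own. These 39 cells (median 7536 UMIs) had 653 CPM of Capg (568 to 747), 288 CPM of Il2ra (232 to 352) and 390 CPM of Ikzf2 (325 to 464). The 224 cells with Foxp3 alone (median 7685.5 UMIs) had 588, 264 and 322 CPM, and the 1149 cells with neither (median 4996 UMIs) had 225, 106 and 172 CPM. On all 3 genes the cells with mRFP alone lay with the cells with Foxp3 and apart from the cells with neither. Nrp1 was 37.1, 37.7 and 41.7 CPM in the same order. Of the intestinal cells 6 had mRFP alone, with 27 Capg UMIs (1226 CPM, 808 to 1783) and 14 Ikzf2 UMIs (635 CPM, 347 to 1066), against 187 and 74.5 CPM in the 1243 cells with neither. Il2ra had no UMI in these 6 cells (0 to 167 CPM), against 20.8 CPM in the cells with neither, so its level there was not resolved.

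Splenic cells that kept a Foxp3 UMI after thinning held a mean of 1.68 of the 8 other members. Those that had none after thinning, among them cells that lost theirs in it, held 0.907. At least 2 other members were found in 62 of 112 cells (55.4%, 45.7 to 64.8) against 318 of 1333 (23.9%, 21.6 to 26.2). No cell held more than 5 of the 8 at this depth, and 14 of the 112 held none. For intestinal cells the means were 1.38 and 0.420, and 7 of 16 cells with Foxp3 held 2 others. Among pairs of other members, Il2ra and Capg were found together in 142 splenic cells where 98.9 would be found if they were unrelated. Ikzf2 and Capg were together in 169 against 143, Ikzf2 and Lrrc32 in 17 against 8.75 and Nrp1 and Capg in 45 against 30.8. Other pairs lay nearer to or below that number: Ikzf2 and Nrp1 in 28 against 24.8, Il2ra and Nrp1 in 19 against 17.2 and Ikzf2 and Gpr83 in 6 against 8.19. All pair counts are of the first draw and carry no interval. Gpr83 was found with none of mRFP, Ikzf4 and Lrrc32, where fewer than 1 cell each would be found if unrelated, so the thinned counts say nothing on these pairs. The points of these counts share 1 library and 1 depth, and remaining differences in total RNA content between cells were not taken out.

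In the first draw, over all genes found in at least 2% of thinned splenic cells, 6693 in number, Capg had the detection pattern most like that of Foxp3. Its phi coefficient (the correlation of detection over 1445 cells of 1 library) was 0.200. The 5 genes outside the list with the highest phi were Socs2 (0.158), a feedback inhibitor of cytokine signalling, Ifngr1 (0.152), a chain of the interferon-gamma receptor, Ctla4 (0.139), an inhibitory receptor, Fam129a (0.133) and Ndufa10 (0.126), a subunit of respiratory complex I. Ikzf2 was at rank 16 (0.106), Il2ra at 54 (0.0852), Lrrc32 at 179 (0.0643), Ikzf4 at 1003 and Gpr83 at 1004 (0.0323 each) and Nrp1 at 4179 (-0.00888). All these coefficients are weak, the counts being sparse, and the order of the genes is a description of the first draw only. In that draw the share of cells with Foxp3 that had Capg was the highest of the 6 draws (67.9%, lowest 59.1%). That of Il2ra was the lowest (31.2%, highest 43.6%), and ranks in the other draws were not taken. Since the members were chosen with earlier results of these data known, nothing is read from the place of Capg. mRFP was found in under 2% of the thinned cells and was not ranked.

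**Figure D5:**
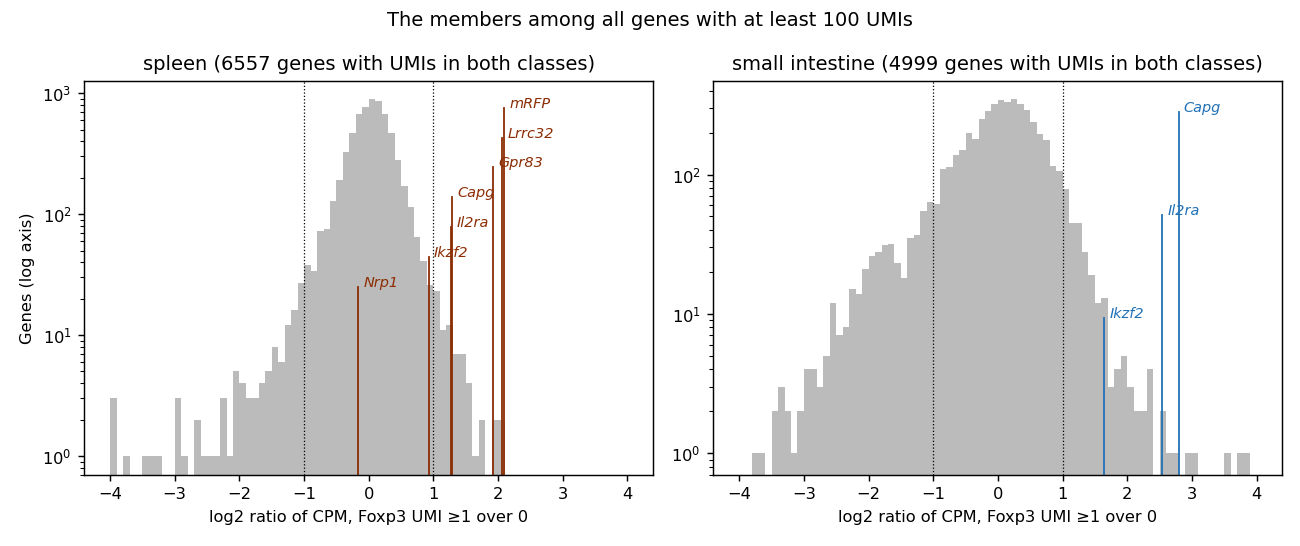
Histograms (log axis) of the log2 ratio of CPM between cells with at least 1 and with no Foxp3 UMI over all genes with at least 100 UMIs and UMIs in both classes, in the spleen (6557 genes) and the small intestine (4999 genes); lines mark the members, dotted lines a 2-fold difference, and values under -4 are drawn at -4. In the spleen mRFP, Lrrc32 and Gpr83 lie at the right edge (2.10, 2.06 and 1.92) and Nrp1 near the middle (-0.16), and in the small intestine Capg is at 2.79. mRFP, Lrrc32 and Gpr83 reached 100 UMIs only with the UMIs of cells with Foxp3, so their place is a description only.

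By the lower bound of the ratio, mRFP, Lrrc32, Gpr83, Capg and Il2ra were at ranks 2, 3, 5, 9 and 12 of the splenic genes and Ikzf2 at rank 38. Nothing is read from the ranks of mRFP, Lrrc32 and Gpr83, which reached 100 UMIs only with the UMIs of cells with Foxp3, where they were high. The same holds for Idi1, Penk, Cd74 and Ltb4r1 below, and for Psen2 among the intestinal genes. The 10 genes outside the list with the highest bound in the spleen were led by Socs2, at 151 against 44.1 CPM and found in 150 of 280 cells with Foxp3 against 13.8% of those without. The others were Idi1, an enzyme of isoprenoid synthesis (32.3 against 8.64 CPM), Ankrd55 (62.8 against 20.6), the metallothionein Mt1 (148 against 55.8), the costimulatory receptor Tnfrsf9 (525 against 213), the opioid precursor Penk (23.7 against 7.03), Igsf23 (48.2 against 16.8), the MHC class II chaperone Cd74 (38.7 against 13.8), the intermediate filament gene Vim (591 against 272) and Ltb4r1, a leukotriene receptor (24.1 against 8.06). Penk rested on few cells, with UMIs in 8 of the 280 and 21 of its 55 UMIs in 1 cell. Mt1 was found in 54 of the 280, with 39 of its 344 UMIs in 1 cell, and Cd74 in 37, with 19 of its 90 in 1 cell. The 5 lowest were the chemokine Ccl5 (348 against 3635 CPM), the osteopontin gene Spp1 (2 against 200 UMIs, log2 ratio -5.09, interval -8.14 to -3.22), the granzyme Gzmk (2.15 against 40.3 CPM), the growth factor binding protein Igfbp4 (2 against 142 UMIs, log2 ratio -4.59, interval -7.65 to -2.72) and the CD30 ligand Tnfsf8 (40.9 against 320 CPM). The 200 Spp1 UMIs of cells without Foxp3 came from 11 cells. Spp1, Gzmk, Igfbp4 and Tnfsf8 reached 100 UMIs only with the UMIs of cells without Foxp3, where they were high, so nothing is read from their place. Ccl5 was found in 42.1% of splenic cells with Foxp3 and 45.1% of those without, with overlapping intervals. Among intestinal cells the 10 highest were the cytokine Il22 (328 against 22.1 CPM), the arginine synthesis enzyme Ass1 (301 against 23.1), the calcium-binding S100a4 (234 against 20.7) and S100a6 (1681 against 279), the cytokine Il17a (335 against 39.5), Rapsn (174 against 22.9), the chemokine receptor Ccr2 (342 against 68.2), Tnfrsf9 (569 against 123), the presenilin Psen2 (121 against 19.5) and Tagln2 (388 against 85.2). Il22 and Il17a were not shared by the cells with Foxp3: 1 cell held 33 of 49 Il22 UMIs and 1 cell held 48 of 50 Il17a UMIs. For S100a6 1 cell held 59 of 251 UMIs. Tnfrsf9 was among the 10 in both tissues, and in intestinal cells with Foxp3 it was found in 13 of 28, with 21 of its 85 UMIs in 1 cell. The 5 lowest were Ccl5 (9616 against 49991 CPM), the CD94 gene Klrd1 (33.5 against 374), the granzyme Gzma (5498 against 26307), Ifitm3 (26.8 against 297) and Arap2 (26.8 against 276). Klrd1, Ifitm3 and Arap2 reached 100 UMIs only with the UMIs of cells without Foxp3, so nothing is read from their place either.

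Lists of related genes were read in the same comparison and described by counts and medians, beside a median log2 ratio of 0.04 over all splenic and 0.06 over all intestinal genes. Splenic cells with a Foxp3 UMI were deeper, with a median of 7665.5 against 5047.5 UMIs. No bins of depth were made for the lists, proliferation genes included, so the part of depth in their values was not tested. The counts stand beside 1.08% of all tested splenic genes called higher by the same rule and 1.72% called lower. Of the tested intestinal genes 4.22% were called higher and 3.54% lower. Of 15 receptors shared by Treg and activated T cells, 1 was at least 2-fold higher with Foxp3 in the spleen (Tnfrsf9, log2 1.30) and none lower, with a median of 0.23. The chemokine receptor Ccr8 had 44.8 against 22.6 CPM (0.99), Ctla4 2030 against 1251 CPM (0.70) and Pdcd1, the gene of PD-1, 86.1 against 162 CPM (-0.91). Of 15 tested in intestinal cells 2 were higher, Tnfrsf9 (2.20) and the folate receptor family gene Izumo1r (1.26), with a median of 0.35. Havcr2, the gene of TIM-3, was lower (-2.52, interval -4.80 to -0.96, on 3 UMIs with Foxp3). Havcr2 reached the minimum of UMIs only with the UMIs of cells without Foxp3, where it was high, so nothing is read from its call.

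Of 21 transcription factors of Treg and effector T cells, 3 were at least 2-fold lower in the spleen and none higher, with a median of -0.24. These were Tcf7 (22.4 against 169 CPM, log2 -2.92) and Bach2 (-1.43), which are expressed in less differentiated T cells, and Bhlhe40 (-1.28). All 3 reached the minimum of UMIs only with the UMIs of cells without Foxp3, where they were high. Nothing is thus read from the splenic count and median of this list. By share of splenic cells, without thinning, the intervals overlapped for Bach2 (6.43% with Foxp3 against 9.34% without). The share was lower with Foxp3 for Tcf7 (12.9% against 42.3%) and Bhlhe40 (18.9% against 27.0%). Of the other Ikaros family factors, Ikzf3 was 242 against 167 CPM (0.54) and Ikzf1 129 against 181 CPM (-0.50). Among intestinal cells none of 17 passed in either direction and the median was -0.12.

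In the IL-2 receptor and STAT5 list, Socs2 was higher in both tissues (log2 1.77 and 1.98). It was the 1 gene of 12 that passed in the spleen, while 3 of 12 passed in intestinal cells, where the IL-7 receptor gene Il7r was also higher (1.99) and the survival factor Mcl1 lower (-1.31). Mcl1 reached 100 UMIs only with the UMIs of cells without Foxp3, where it was high, so nothing is read from its call. The partners of Il2ra were 234 against 157 CPM for Il2rb (0.58) and 195 against 230 CPM for Il2rg (-0.24) in the spleen, so of the 3 receptor chains Il2ra alone passed 2-fold. The medians were -0.20 and 0.04. In the list around Lrrc32 and TGF-beta, 1 of 11 was higher in the spleen, Itgb8 (46.0 against 19.8 CPM, log2 1.22), an integrin chain that frees active TGF-beta, and Tgfb1 was 201 against 183 CPM (0.13), with a median of 0.04. Of 9 tested in intestinal cells 2 were lower, with a median of 0.04. These were the protease Furin (-1.11) and the receptor Tgfbr2 (-2.12, interval -5.18 to -0.26, on 2 UMIs with Foxp3). Furin and Tgfbr2 reached the minimum of UMIs only with the UMIs of cells without Foxp3, so nothing is read from their calls.

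Of 6 suppressive products 3 were higher in the spleen with a median of 0.92: Penk (1.75), Fgl2 (1.49, 27.5 against 9.81 CPM) and the growth factor Areg (1.23, with 17 of its 94 UMIs in 1 cell). Penk and Fgl2 reached 100 UMIs only with the UMIs of cells with Foxp3, where they were high, so nothing is read from this count and median. Penk was found in 2.86% of splenic cells with Foxp3 and 1.68% of those without, with overlapping intervals. Il10, on whose reporter the cells were sorted, was 633 against 422 CPM (0.59) in splenic and 703 against 594 CPM (0.24) in intestinal cells. Of 5 tested in intestinal cells 1 was higher, the galectin Lgals1 (1.08), and the median was 0.24. In cells with Foxp3, 57 of the 381 Lgals1 UMIs were in 1 cell. Lgals1 was found in 89.3% of intestinal cells with Foxp3 and 87.6% of those without, with overlapping intervals. Of the effector cytokines and cytotoxic products, 8 of 10 were lower in CPM with Foxp3 in splenic (median -2.16) and 6 of 12 in intestinal cells (median -1.55). Ccl5 (-3.39 and -2.38), Ccl4 (-2.01 and -2.35) and Gzmk (-4.23 and -2.07) were lower in both tissues, and Ifng was 8.18 against 77.9 CPM (-3.25) in the spleen. In the spleen Ifng, Il17a, Il21, Cd40lg, Ccl3 and Gzmk reached 100 UMIs only with the UMIs of cells without Foxp3, where they were high. Among intestinal cells the same held for Ccl3, Ccl4 and Gzmk, so nothing is read from these counts and medians. By share of splenic cells, without thinning, the intervals overlapped for Ccl5 (42.1% with Foxp3 against 45.1% without), Ccl4 (22.9% against 22.4%), Ccl3 (7.86% against 10.9%) and Il17a (1.43% against 0.842%). The share was lower with Foxp3 for Ifng (5.36% against 18.1%), Gzmk (1.79% against 9.68%), Il21 (10.4% against 24.9%) and Cd40lg (3.57% against 10.2%). The 3 effector products that were higher in the small intestine were the cytokines Il17a, Il22 and Il17f, and all 55 Il17f UMIs were in 1 cell. Of 12 proliferation genes 2 were higher in the spleen, the mitotic cyclins Ccnb1 (1.07) and Ccnb2 (1.08), with a median of 0.68, in cells from which G2/M cells had been left out, and 1 of 7 in intestinal cells, the replication factor Mcm5 (1.74, 9 of 11 UMIs in 1 cell), with a median of 0.82. In the small intestine the CD8 genes summed to 154 CPM in cells with Foxp3 and 359 CPM in cells without. Without the cells that had UMIs of both CD8 genes, 6 of 12 effector products were again lower (median -1.54), with Ccl5 at -2.53, Ccl4 at -2.37 and Gzmk at -1.99. Ccl3, Ccl4 and Gzmk again reached 100 UMIs only with the UMIs of cells without Foxp3, so nothing is read from that count and median. Calls changed for the transcription factors, of which 1 of 17 was then lower (Ikzf1, -1.04, on 9 UMIs with Foxp3). Of the proliferation genes 2 of 6 were then higher, Birc5 (1.54) and Stmn1 (1.21). Calls of the other lists stayed the same. The share of all genes called without these cells is not given, so nothing is read from these changes. The markers of other cell types were also read in the 2 splenic classes: those of myeloid cells were 4.73 CPM with Foxp3 and 10.5 CPM without, and those of epithelial cells 49.1 and 26.5 CPM, and their part in the ratios was not tested.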

How the data were processed

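IL-10eGFP+ CD4+ T cells of 1 splenic and 1 intestinal library were measured. The authors demultiplexed and trimmed the reads (Trimmomatic), aligned them with Cell Ranger to mm10 and deposited whole-number UMI counts per gene and barcode. Their processing notes name mm8 as well, and no tool version is given in the sources used here. The study's filters on cells had not yet been applied to the deposited tables, and the cells kept here were fewer than those the study says it analysed.

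Cells with few UMIs, few genes or a high mitochondrial share (beyond 3 median absolute deviations) and cells called G2/M (scran 1.30.0 cyclone, 1000 iterations, with scuttle 1.12.0 and Matrix 1.6.5 in R 4.3.3) were left out. Doublets were not removed, and leaving out the top 5% of cells by UMIs was an alternative. Further steps used Python 3.11.15, numpy 2.4.6, scipy 1.17.1, pandas 2.3.3 and matplotlib 3.10.9. UMIs were summed over cells. CPM carry exact Poisson intervals, ratios exact binomial intervals and shares Clopper-Pearson intervals, all at 95% and for counting error only. A gene with at least 100 UMIs was called where its ratio was at least 2-fold and its interval excluded equality. With 1 library per tissue no test was made. The intervals and the call rule were tested on simulated Poisson counts with known folds, for classes of randomly chosen cells. The simulation held no gathering of UMIs in single cells and no difference in depth between the classes, so it does not test the intervals against these. For equal depth, cells were thinned at random to 2000 UMIs. For co-detection, cells were split by their Foxp3 UMIs after thinning.

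All members were named, with the 10 other genes of highest lower bound and the 5 of lowest upper bound of the ratio with Foxp3 in each tissue, the 5 other genes of highest phi, and the genes of highest or lowest ratio of each list. Other list genes were chosen after their values were seen. The members and lists were chosen with earlier results of these data known. Values within bins of depth, without the cell highest in a member and, for the lists, without intestinal CD8 cells were added after seeing the data. The study's plate-based single-cell, bulk and human data were not analysed here. The values of 1 list of cell type markers are not reported here.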

Additional observations from a re-analysis of the deposited data

How the results depend on the processing

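With 1 library per tissue the spread between animals is unknown, and the 28 intestinal cells with a Foxp3 UMI limit each result on them. No paired analysis was possible because each tissue had 1 library. The log2 ratio of Foxp3 between spleen and small intestine was 2.76 and lay between 2.60 and 3.04 under the alternatives. Thinning to 1000 UMIs gave a splenic Foxp3 share of 4.56%. In the spleen 5 members were called higher with Foxp3. After thinning to 2000 UMIs 3 of 4 tested were called, Il2ra, Capg and Ikzf2, of which Ikzf2 was not among the 5. For thinned ratios and calls by Foxp3 class, cells were still split by their Foxp3 UMIs before thinning. With at least 2 Foxp3 UMIs 2 of 4 were called, Il2ra and Capg. Fewer members reached 100 UMIs under both settings. The share of all genes called under these settings is not given here, so nothing is read from these counts of members. Ikzf4 reversed to -0.23 in the shallowest bin of splenic cells, on 1 UMI. Genes called higher with Foxp3 in the spleen numbered 71, and 283 with no minimum of UMIs, 9 with at least 500 UMIs, 329 at a fold of 1.5 and 26 after thinning. Those called lower numbered 113, and 289, 29, 319 and 65 in the same order. Among intestinal cells 213 were higher, and 422, 23, 404 and 104, while 179 were lower, and 81 with at least 500 UMIs and 82 after thinning. Between the tissues 998 were higher in the spleen, and 1531, 437, 1812 and 538 under the same 4 settings, and 750 were lower, and 1600, 282, 1572 and 441. Of 156 ratios by Foxp3 class under alternatives, 129 stayed within their counting interval, 26 left it and 1 reversed. Values also stayed within it for 51 of 54 ratios between tissues, 145 of 162 shares and 138 of 144 shares of co-detection. The cause of these moves was not tested.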

Other observations

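The 180 splenic cells called G2/M, left out of the comparisons above, also carried the members. Foxp3 was 73.5 CPM (61.0 to 87.8) in these cells and 52.3 CPM (47.5 to 57.3) in the 1414 G1 cells, mRFP 23.7 CPM (16.8 to 32.4) against 11.2 CPM (9.07 to 13.7) and Nrp1 62.6 CPM (51.1 to 75.9) against 39.4 CPM (35.3 to 43.9). For these 3 genes the intervals did not overlap. Capg was 389 CPM (360 to 421) against 333 CPM (321 to 345), also without overlap, and Lrrc32, at 6.68 CPM (3.34 to 12.0) against 12.4 CPM (10.1 to 14.96), had the other order with overlapping intervals. G2/M cells were deeper, with a median of 8675.5 against 5356.5 UMIs, and the part of depth was not tested. Of the 62 intestinal G2/M cells 1 had Foxp3, with 2 UMIs, and Ikzf2 was 116 CPM (84.6 to 154) in them against 83.1 CPM (75.2 to 91.5) in G1 cells.

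Epcam, an epithelial adhesion gene, was found in 165 splenic cells at 31.6 CPM, with 48.2 CPM in cells with a Foxp3 UMI and 25.9 CPM in cells without, while the epithelial genes Krt8 and Fabp2 were at 0 there.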
